A study of Mus musculus with 72 samples.

Results

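The comparison asks how 21 days of high-fat diet (HFD) changed gene expression in the liver of 129P2/OlaHsd mice, an inbred strain. It was chosen by sample title and holds 15 of the 72 arrays of a study of 4 inbred strains, 7 from HFD livers and 8 from control livers. All mice of both groups were wild-type males of 17 weeks that were housed singly and random fed. The HFD mice had eaten that diet for 21 days. For the controls the treatment label reads none while the protocol text names a low-fat diet of at most 21 days, so their exact diet is not settled and every difference below is one from these controls. The fat content of the diets, the hour of sampling and the litter of each mouse are not given in the labels. Total RNA of whole liver was hybridised to Affymetrix arrays with probes along whole transcripts, and each value below is a log2 expression value made by the authors with the RMA algorithm. A difference of 1 on this scale is a doubling, and only values of the same gene are compared with each other.

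The liver takes up dietary fatty acids, burns them in mitochondria and peroxisomes, turns the surplus into ketone bodies or triglyceride, and exports lipid in lipoproteins. Fatty acids activate the nuclear receptor PPARα, which raises the transcription of genes for their own oxidation, while SREBP factors drive genes of fatty acid and cholesterol synthesis. Another large set of liver genes encodes enzymes that oxidise and conjugate drugs, bile acids and reactive compounds, among them the cytochromes P450 and the glutathione S-transferases, which answer to the sensors PXR, CAR and NRF2. Kupffer cells, the resident macrophages, and the circadian clock contribute further RNA to a whole-liver sample, and both are known to respond to diet in mice.

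The 15 arrays were alike in overall signal, with array medians between 6.46 and 6.65, and no column was identical to another. HFD 1 and control 6 stood apart, with mean correlations to the arrays of their own group of 0.9716 and 0.9692, against 0.9855 to 0.9897 for the other 13. The mean of 18 hepatocyte markers was lowest in these arrays (12.89 in HFD 1 and 12.79 in control 6) and lay between 13.04 and 13.16 in the others, so all 15 samples carried the labelled tissue. The threshold for a call was an adjusted p under 0.05 in limma (Benjamini-Hochberg over the 19938 genes tested), and folds are given with 95% intervals. Nothing in the labels ties the arrays to separate litters or days, so the p-values describe only the spread among these 15 arrays, part of which may be technical. Of the called genes, 10 fall outside the rule by which genes were named and were named after their values were seen (Acsm3, Casp8, Cyth4, Gm36028, Mustn1, Phlda2, Pir, Smpd3, Snhg11 and Tmed5).

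HFD changed a small set of genes by moderate amounts. Of 19938 genes 44 were called (0.221%), 24 higher (0.12%) and 20 lower (0.1%) in HFD livers. The genes that rose included Vnn1, Fabp2, Mgll, Eci2, Decr1, Decr2 and Acat1, and those that fell included the P450 genes Cyp3a44, Cyp3a11 and Cyp2c55 and the glutathione transferase genes Gstm3, Gstm4, Gstm6 and Gsta4. Of the 44, 23 differed by at least 1.5-fold and 5 by at least 2-fold. At an unadjusted p under 0.05 there were 1160 genes higher (5.82%) and 496 lower (2.49%). The median difference over all genes was 0.00, with 10178 positive and 9760 negative differences. These values over all genes are the ones to set beside the counts of list members below. The unadjusted shares moved with the processing. After quantile normalization within the strain 4.91% of genes were higher and 4.09% lower. Without HFD 1 and control 6, a setting chosen after seeing the data, the shares were 5.33% and 5.18%. In 52 genes (0.261%) the groups did not overlap, with every HFD array above all controls in 36 (0.181%) and below all controls in 16 (0.0802%), and 29 of the 44 called genes were among these 52.

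The number of calls depended on single arrays. It was 22 without control 1, 25 without control 2 or 4, 26 without control 5 or 8 or HFD 4, 28 without control 7 and 24 without HFD 3 or HFD 6, and it was 59 without control 6. Without both HFD 1 and control 6 it was 81, a setting chosen after seeing the data. A core of 21 genes was called whichever array was left out. These were Vnn1, Slc8a1, Fabp2, Chrna2, Mgll, Cd44, Vcam1, Eci2, Asic5 and Acat1 among the genes that rose and Cyp3a44, Cyp3a11, Gstm3, 9130409I23Rik, Ddc, Ces2a, Gstm4, Gas7, Ugdh, Rnd2 and Gsta4 among those that fell. All 44 kept their sign in each of the 15 fits.

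**Figure D1:**
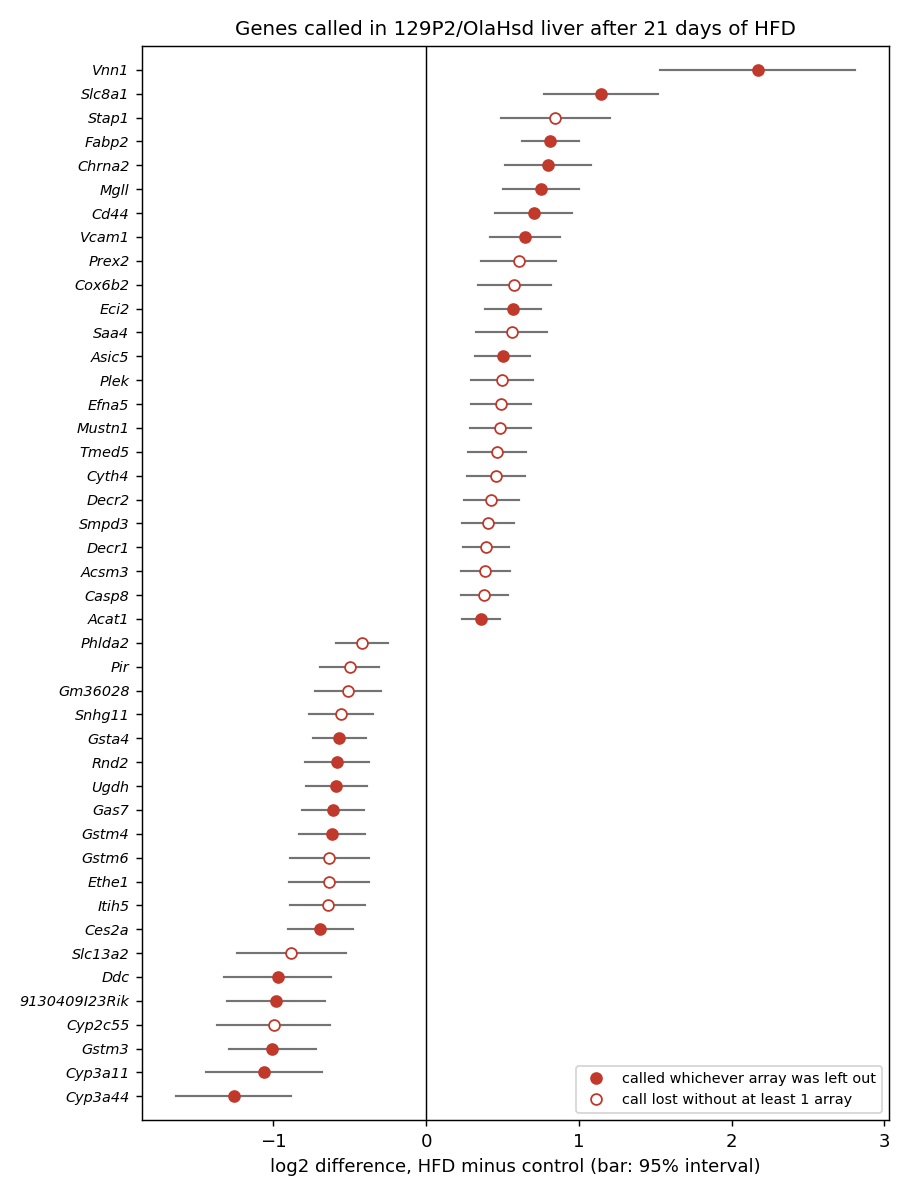
Difference between HFD and control livers on the log2 scale (x axis) for each of the 44 called genes (y axis), with 95% intervals as bars, 7 HFD and 8 control arrays. Filled points mark the 21 genes called whichever array was left out; Vnn1 stands farthest to the right at 2.17 and Cyp3a44 farthest to the left at -1.26.

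Vnn1 encodes a pantetheinase of the hepatocyte surface and is a classic PPARα target. Its values in the 7 HFD livers were 10.90, 10.86, 11.03, 10.48, 10.46, 9.57 and 9.33, against 8.31, 8.80, 7.97, 7.18, 7.34, 8.24, 8.84 and 8.97 in the 8 control livers. Every HFD array lay above every control, with HFD 6 and 7 nearest to them. Vnn1 rose 4.5-fold (95% interval 2.89 to 7.0; adjusted p = 0.0079), which was the largest change among called genes. Fabp2, the fatty acid binding protein best known from the intestine, had the lowest adjusted p of all genes (0.00087). It measured 10.69, 10.38, 11.02, 10.74, 10.73, 10.97 and 10.5 in HFD livers, against 9.82, 9.99, 9.78, 9.82, 10.10, 9.84, 9.90 and 9.99 in control livers. The groups were separated by a gap, and Fabp2 rose 1.76-fold (1.54 to 2.0). Fabp2 was not called when all 72 arrays of the 4 strains shared 1 estimate of the spread (adjusted p = 0.11). The strains lie on separate value scales with unequal spread, so that shared estimate need not hold for this strain.

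Mgll encodes the lipase that splits monoacylglycerol, the last step in the breakdown of stored triglyceride. It lay between 10.61 and 11.30 in HFD livers (median 10.96), against 9.69 to 10.46 in control livers (median 10.18). No HFD array reached down to the controls, and Mgll rose 1.68-fold (1.42 to 2.0; adjusted p = 0.01). It was the only called gene of the 20 in the list of lipid droplet and lipolysis genes (median difference 0.09). The droplet coat protein gene Plin2 differed by 0.35 ± 0.10 (SE) and Cidec, which fuses droplets, by 0.12 ± 0.08, and neither was called (adjusted p = 0.23 and 0.74). The interval for Cidec ran from -0.06 to 0.29.

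**Figure D2:**
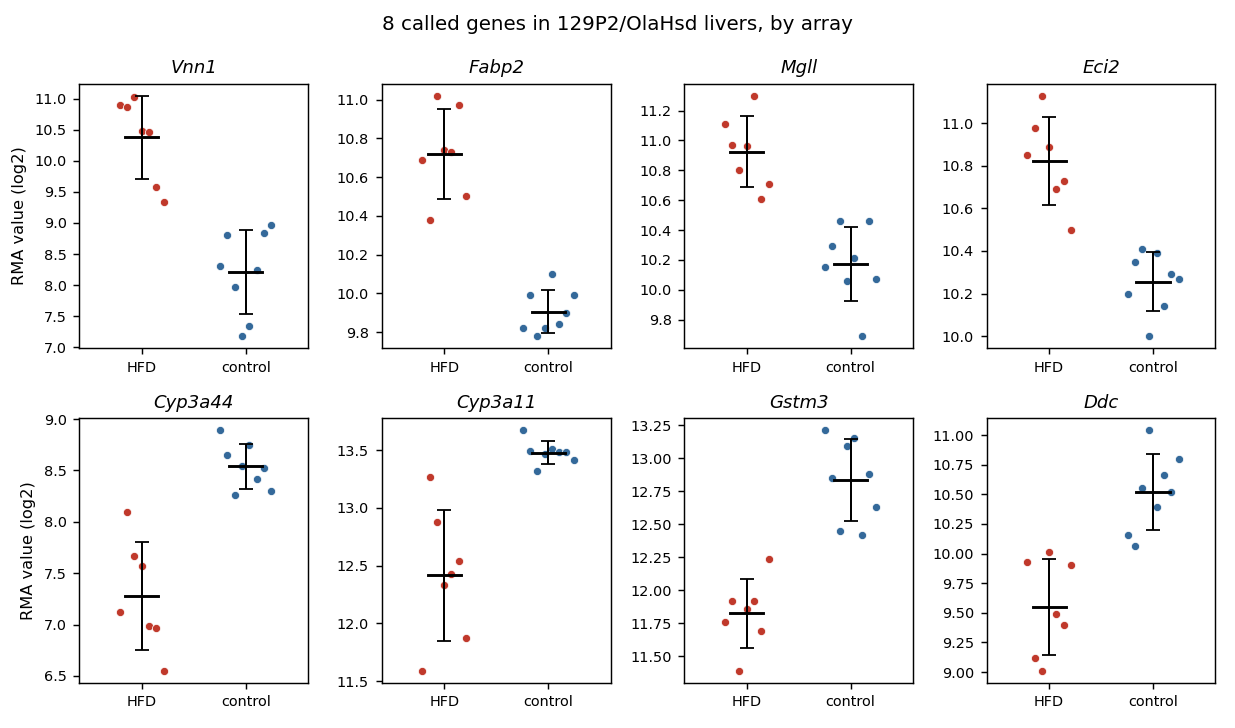
RMA values (log2, y axis) of 8 called genes in each of the 7 HFD and 8 control arrays, with group means and SDs as bars; each panel has its own axis, which does not start at 0. In all 8 panels the HFD arrays lie wholly above (Vnn1, Fabp2, Mgll, Eci2) or wholly below (Cyp3a44, Cyp3a11, Gstm3, Ddc) the controls.

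The 20 measured genes of mitochondrial fatty acid oxidation all had a positive difference, with a median of 0.20. Both called members act on unsaturated fatty acids. Eci2, an isomerase that moves double bonds, lay between 10.5 and 11.13 in HFD livers (median 10.85), against at most 10.41 in control livers (median 10.28), and rose 1.48-fold (1.30 to 1.69; adjusted p = 0.01). Decr1, the mitochondrial dienoyl-CoA reductase, lay between 10.93 and 11.31 in HFD livers (median 11.18), against 10.61 to 10.94 in control livers (median 10.72). Control 6 alone reached into the HFD range, and Decr1 rose 1.31-fold (1.18 to 1.46; adjusted p = 0.033). Its peroxisomal counterpart Decr2 lay between 11.83 and 12.26 in HFD livers (median 12.02), against 11.28 to 11.77 in control livers (median 11.62), without overlap, and rose 1.35-fold (1.19 to 1.53; adjusted p = 0.049).

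In ketone body synthesis, Acat1, which joins acetyl-CoA units, rose 1.28-fold (1.18 to 1.4; adjusted p = 0.016), with values of 12.21 to 12.53 in HFD livers (median 12.36) against 11.82 to 12.10 in control livers (median 12.01). Bdh1, which makes 3-hydroxybutyrate, differed by 0.38 ± 0.11 and was not called (adjusted p = 0.21). Outside the lists, Acsm3, which activates medium-chain fatty acids, rose 1.31-fold (1.17 to 1.46; adjusted p = 0.043). Cpt1a, the carnitine transferase that admits long chains to mitochondria, had 11.57 to 12.14 in HFD livers (median 12.01), against 10.41 to 12.07 in control livers (median 11.53), and was not called (0.45 ± 0.19, adjusted p = 0.50). Over the list, 14 of 20 genes had an unadjusted p under 0.05 in the higher direction, against 5.82% of all genes, and none in the lower. That number was 9 without HFD 2, a setting in which 7.01% of all genes passed. Without HFD 1 and control 6 it was 11 (5.33% of all genes), and the list median was 0.12. The list mean of every HFD array (11.17 to 11.44) lay above that of every control (10.64 to 11.10). HFD 1 had the highest of these means and control 6 the lowest. The 47 oxidative phosphorylation genes, also mitochondrial, had a median of -0.01, and limma called 0 of them, with 0 at an unadjusted p under 0.05.

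Decr1 was not called without HFD 1, 2, 3, 4 or 6 or control 1, 4, 5 or 7 (adjusted p 0.054 to 0.095). Decr2 was called only without HFD 7, control 3 or control 6 among the 15 such fits and otherwise had an adjusted p of 0.063 to 0.11, and Acsm3 lost its call without 11 of the arrays (0.059 to 0.11). With all 72 arrays in the fit Acat1, Acsm3 and Decr1 were not called (adjusted p = 0.061, 0.71 and 0.05 after rounding). The differences kept their sign in each case.

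Of the 16 genes on the list of omega oxidation and PPARα markers, Vnn1 was the 1 called (list median 0.22). At an unadjusted p under 0.05, 8 had a higher value and none a lower one, against 5.82% and 2.49% of all genes. Cyp4a14, which hydroxylates the far end of fatty acids, read 13.41, 13.33, 12.36, 10.53, 10.86, 10.59 and 12.58 in HFD livers, against 10.64, 10.68, 9.32, 10.55, 12.07, 7.38, 8.13 and 10.18 in control livers. HFD 4, 5 and 6 lay among the controls and control 5 among the HFD arrays, so that a mean 4.25-fold higher (1.70 to 10.6) was not called (adjusted p = 0.24). Cyp4a10 (0.73 ± 0.27), the lipase inhibitor gene Angptl4 (0.65 ± 0.18) and the hormone gene Fgf21 (0.16 ± 0.13) were not called either, and Pdk4, which restrains glucose oxidation, had a negative difference (-0.39 ± 0.24, adjusted p = 0.71). No relation between Vnn1 and Cyp4a14 from liver to liver was detected (Pearson r = 0.375, rho = 0.357 in 7 HFD livers, and r = -0.396, rho = -0.238 in 8 control livers; exact permutation p = 0.356 and 0.339, both 0.356 after adjustment over 6 relations). Without the 2 arrays farthest from the median of Vnn1, r was 0.847 in HFD livers (without 6 and 7) and 0.235 in control livers (without 4 and 5), so neither value is stable.

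In fatty acid uptake and binding, Fabp2 was 1 of 14 genes called. Fabp5, a binding protein of skin and macrophages, had 7.78 to 9.60 in HFD livers (median 8.61), against 9.07 to 10.29 in control livers (median 9.72), and a difference of -1.02 ± 0.25 that was not called (adjusted p = 0.12), and the fatty acid receptor gene Cd36 differed by 0.28 ± 0.19. The peroxisomal list had 1 gene of 19 called, Decr2 (list median 0.18). At an unadjusted p under 0.05, 6 of the 19 were higher and 1 lower, against 5.82% and 2.49% of all genes. Ech1, an isomerase of dienoyl-CoA, did not overlap between the groups (10.94 to 11.73 in HFD livers, 10.38 to 10.92 in control livers) and just missed the call (0.52 ± 0.11, adjusted p = 0.059). For the 12 acyl-CoA thioesterases, which free fatty acids from CoA, 0 were called by limma and 3 were higher at an unadjusted p under 0.05, with Them4 at 0.31 ± 0.10 and Acot12 at 0.28 ± 0.10.

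For fatty acid synthesis, 0 of 16 genes of de novo lipogenesis were called by limma, with 2 higher and 4 lower at an unadjusted p under 0.05 (median -0.10). Scd1, the stearoyl-CoA desaturase, had 12.28 to 13.58 in HFD livers (median 13.20), against at least 13.23 in control livers (median 13.90), a difference of -0.73 ± 0.19 (adjusted p = 0.15). Acss2, which makes acetyl-CoA from acetate, differed by -0.79 ± 0.19 (adjusted p = 0.12). Fasn, the fatty acid synthase, had a difference of 0.10 with an interval of -0.47 to 0.68, and Srebf1, its regulator, one of 0.56 ± 0.22 (adjusted p = 0.46). Of the 20 genes of cholesterol synthesis, 17 had a negative difference (median -0.24), against 9760 of all 19938 genes. Limma called 0 of the 20, and 4 were lower at an unadjusted p under 0.05, against 2.49% of all genes. Pmvk, a kinase of the mevalonate pathway, was at -0.50 ± 0.14 and Tm7sf2, a sterol reductase, at -0.36 ± 0.11. The lists of triglyceride synthesis (11 genes, median 0.03), polyunsaturated fatty acid synthesis (8, median 0.04) and lipoproteins (17, median 0.06) had 0 members called by limma, with 1, 2 and 3 at an unadjusted p under 0.05. Mfsd2a, a transporter of lysophospholipids, had 9.78 to 11.51 in HFD livers (median 11.12), against 7.97 to 11.24 in control livers (median 9.17), and was not called (1.36 ± 0.41, adjusted p = 0.25).

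**Figure D3:**
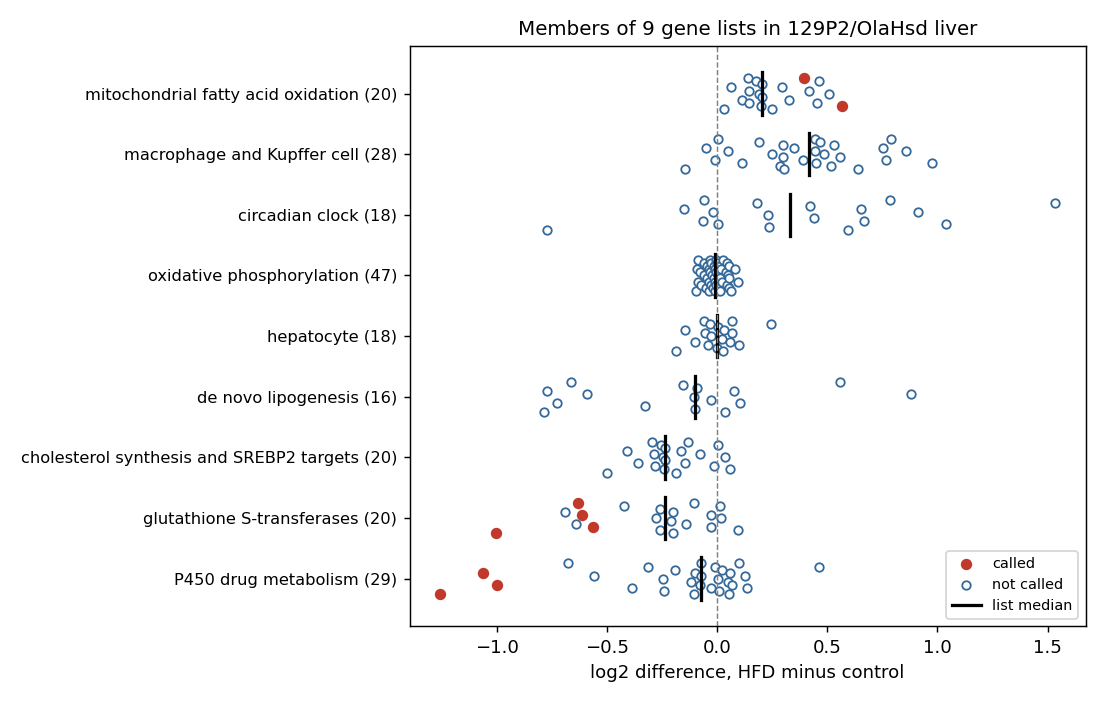
Differences between HFD and control livers on the log2 scale (x axis) for the members of 9 gene lists (rows, number measured in brackets), with called genes filled and list medians as black bars. Mitochondrial fatty acid oxidation lies wholly to the right of 0, oxidative phosphorylation and hepatocyte genes stay close to 0, and the called glutathione S-transferase and P450 genes lie at -0.57 or below.

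Glutathione S-transferases, which attach glutathione to reactive compounds, were the list with the most called members. Of 20 measured genes 4 fell, against 0.1% of all genes, and the median was -0.24. At an unadjusted p under 0.05, 11 were lower (2.49% of all genes) and none was higher. After quantile normalization within the strain 12 were lower (4.09% of all genes) and none was higher. Without HFD 1 and control 6, 12 were lower (5.18% of all genes) and 1 was higher (5.33%). Gstm3 fell 2.01-fold (1.65 to 2.45; adjusted p = 0.0072) and read 11.76, 11.92, 11.39, 11.86, 11.92, 11.69 and 12.24 in HFD livers, against 13.21, 12.85, 12.45, 13.09, 13.15, 12.42, 12.88 and 12.63 in control livers. Control 3 and control 6 were the lowest controls, and still lay above HFD 7, the highest HFD array. Gsta4, which detoxifies the lipid peroxidation product 4-hydroxynonenal, had 10.94 to 11.44 in HFD livers (median 11.30), against 11.63 to 12.06 in control livers (median 11.88), without overlap, and fell 1.48-fold (1.31 to 1.67; adjusted p = 0.0079). Gstm4 fell 1.53-fold (1.32 to 1.78; adjusted p = 0.016) and Gstm6 1.55-fold (1.29 to 1.86; adjusted p = 0.043). HFD 1 overlapped the controls in Gstm4, and HFD 1 and HFD 7 did so in Gstm6. Gstm6 was not called without HFD 1, 2, 3, 4, 5 or 6 or control 1, 2, 4, 5 or 8 (adjusted p 0.064 to 0.11). Gstp1, the pi class enzyme, differed by -0.26 ± 0.08 and was not called (adjusted p = 0.27). Probe sets of close relatives such as the Gstm and Cyp3a genes can share signal, which limits each single value of these families.

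Among 22 genes of glutathione synthesis and antioxidant enzymes only Ugdh, which makes UDP-glucuronate for conjugation, was called. It had 11.14 to 11.76 in HFD livers (median 11.51), against 11.83 to 12.29 in control livers (median 12.14), without overlap, and fell 1.5-fold (1.31 to 1.73; adjusted p = 0.015). Nqo1, a quinone reductase often read as a marker of NRF2, lay below the median level of all genes and differed by -0.28 with an interval of -0.60 to 0.04, and Gpx3, a secreted peroxidase, by 0.38 ± 0.08 (adjusted p = 0.064). Of 27 genes of conjugation and carboxylesterases 1 was called. Ces2a, a carboxylesterase, had 9.82 to 10.36 in HFD livers (median 10.24), against 10.48 to 11.09 in control livers (median 10.84), and fell 1.62-fold (1.4 to 1.87; adjusted p = 0.0079). Pir, which encodes the nuclear protein pirin and lies outside these lists, fell 1.42-fold (1.24 to 1.62; adjusted p = 0.028), with 8.32 to 8.72 in HFD livers against 8.83 to 9.53 in control livers. Its call ended without HFD 3, 4 or 6 or control 1, 2, 4 or 8 (0.053 to 0.074).

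Promoters were searched because genes of this kind are known to carry antioxidant response elements, the sites that NRF2 binds. Ugdh and Pir are shown because each fell and its window held 2 matches to the core TGACNNNGC, on either strand and with none overlapping. They were chosen after their values were seen, and 9130409I23Rik, of no annotated function, also held more than 1 match. The sequences are the 300 bases from 250 before to 50 after the start site, from RefSeq (GRCm38.p6), 5′ to 3′ on the gene's strand, with matches in capitals.
Ugdh (chr5:65435793-65436092, minus strand): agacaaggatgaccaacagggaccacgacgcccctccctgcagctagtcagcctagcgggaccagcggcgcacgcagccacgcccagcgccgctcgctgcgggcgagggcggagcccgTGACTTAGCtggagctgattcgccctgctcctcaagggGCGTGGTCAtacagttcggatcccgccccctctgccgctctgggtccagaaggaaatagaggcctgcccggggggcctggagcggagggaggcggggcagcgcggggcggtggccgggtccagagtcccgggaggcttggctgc
Pir (chrX:164269181-164269480, plus strand): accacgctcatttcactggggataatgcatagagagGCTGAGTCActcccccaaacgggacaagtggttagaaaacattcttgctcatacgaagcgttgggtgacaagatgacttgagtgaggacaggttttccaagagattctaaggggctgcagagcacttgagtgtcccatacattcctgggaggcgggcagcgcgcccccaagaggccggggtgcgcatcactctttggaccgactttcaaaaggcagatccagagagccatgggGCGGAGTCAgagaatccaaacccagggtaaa
At least 1 match was found in 12.4% of all 32851 promoter windows and in 15.2% of the 15614 tested genes with a window. It was found in 6 of the 33 called genes with a window, among them Cyth4, Efna5 and Plek, which rose. None of the called transferase genes Gstm3, Gstm4, Gstm6 and Gsta4 was among these 6, and Gsta4 had no window to search. A match is a stretch of letters and says nothing of binding.

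P450 genes of drug metabolism held the largest decreases among called genes. Of 29 measured, 3 fell, against 0.1% of all genes, and the median was -0.08. At an unadjusted p under 0.05, 5 were lower and 1 was higher, against 2.49% and 5.82% of all genes. Cyp3a44 read 7.12, 8.10, 7.67, 7.57, 6.99, 6.97 and 6.55 in HFD livers, against 8.89, 8.65, 8.26, 8.54, 8.75, 8.42, 8.52 and 8.30 in control livers. All HFD arrays lay below all controls, with HFD 2 closest, and Cyp3a44 fell 2.39-fold (1.84 to 3.11; adjusted p = 0.0079). Cyp3a11, a major drug-oxidising P450 of mouse liver, read 11.59, 13.27, 12.88, 12.33, 12.43, 12.54 and 11.87 in HFD livers, against 13.67, 13.49, 13.32, 13.47, 13.51, 13.48, 13.48 and 13.41 in control livers. The controls were tightly grouped (SD 0.0975) and the HFD livers were spread (SD 0.569), with HFD 1 and 7 lowest and HFD 2 just under the controls. Cyp3a11 fell 2.09-fold (1.61 to 2.72; adjusted p = 0.017). Cyp2c55 fell 2.0-fold (1.55 to 2.58; adjusted p = 0.02), but both groups (5.07 and 6.07 on average) lay below the median level of all genes and arrays (6.90), and whether such values exceed background was not tested. The call ended without HFD 3 or HFD 6 (adjusted p = 0.058 to 0.064). The CAR target Cyp2b10 differed by -0.56 with an interval of -1.23 to 0.11. Cyp3a44 is also on a list of 18 female-biased liver genes. It was the only one called there, and limma called 0 of 21 male-biased genes, with 1 at an unadjusted p under 0.05.

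The promoters of Cyp3a44 and Cyp3a11 are shown because these genes had the largest decreases among called genes. In a global alignment 226 of 316 columns were identical (71.5%). Each window held 1 copy of AGGTCA, the half-site that nuclear receptors such as PXR recognise, on either strand. Both windows are from RefSeq (GRCm38.p6), on the gene's strand, with the match in capitals, and were chosen after the values were seen.
Cyp3a44 (chr5:145805825-145806124, minus strand): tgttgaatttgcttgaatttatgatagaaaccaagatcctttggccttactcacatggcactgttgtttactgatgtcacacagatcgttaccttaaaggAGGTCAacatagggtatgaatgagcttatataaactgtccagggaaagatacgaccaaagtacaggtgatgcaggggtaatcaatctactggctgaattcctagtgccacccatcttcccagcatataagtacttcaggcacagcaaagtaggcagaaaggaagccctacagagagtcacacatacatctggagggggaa
Cyp3a11 (chr5:145879805-145880104, minus strand): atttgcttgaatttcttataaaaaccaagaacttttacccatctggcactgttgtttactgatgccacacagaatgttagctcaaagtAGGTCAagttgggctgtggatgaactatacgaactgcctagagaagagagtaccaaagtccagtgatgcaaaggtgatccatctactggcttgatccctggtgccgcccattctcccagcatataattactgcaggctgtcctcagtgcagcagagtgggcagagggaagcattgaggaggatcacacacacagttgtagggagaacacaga
The half-site was in 16.3% of all windows, in 16.3% of tested genes and in 6 of 33 called genes.

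Further genes fell outside the P450 and glutathione transferase lists. Ddc, the decarboxylase of aromatic amino acids, had 9.01 to 10.01 in HFD livers (median 9.49), against 10.06 to 11.04 in control livers (median 10.54), and fell 1.96-fold (1.54 to 2.50; adjusted p = 0.017). It was the only gene called of 30 among amino acid catabolism and urea cycle genes (list median -0.07). There 7 were lower and none higher at an unadjusted p under 0.05, against 2.49% and 5.82% of all genes. A negative difference was found in 24 of the 30, against 9760 of all 19938 genes. Cth, which makes cysteine, had 12.01 to 12.59 in HFD livers against 12.33 to 13.04 in control livers and was not called (-0.40 ± 0.10, adjusted p = 0.12). The uncharacterised 9130409I23Rik fell 1.97-fold (1.58 to 2.46; adjusted p = 0.01), with 7.31 to 8.51 in HFD livers against 8.53 to 9.25 in control livers. Slc13a2, a carrier of citrate and other dicarboxylates, fell 1.84-fold (1.44 to 2.36; adjusted p = 0.043), although HFD livers averaged below the median level of all genes. Ethe1, a mitochondrial enzyme of sulfide oxidation, fell 1.55-fold (1.29 to 1.86) and Itih5, of a family of matrix-binding plasma proteins, fell 1.56-fold (1.32 to 1.85), with adjusted p of 0.043 and 0.028. Gas7, linked to the cytoskeleton, and Rnd2 fell 1.53-fold (1.33 to 1.75; adjusted p = 0.01) and 1.5-fold (1.29 to 1.73; adjusted p = 0.017).

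Among these, Ddc, 9130409I23Rik, Gas7 and Rnd2 were called whichever array was left out, though Rnd2 was not with all 72 arrays in the fit (adjusted p = 0.10). Slc13a2 was not called without HFD 1, 2, 3, 4 or 6 or control 1, 2, 3, 4, 5 or 8 (adjusted p 0.054 to 0.11). The call of Itih5 ended without HFD 1, 3 or 6 or control 1, 4, 5 or 7 (0.052 to 0.074), and that of Ethe1 without any array other than HFD 1, control 3 and control 6 (0.052 to 0.11). The remaining genes that fell were Snhg11, a host transcript of small nucleolar RNAs (1.47-fold, 1.27 to 1.70), Gm36028 (1.43-fold, 1.23 to 1.66) and the imprinted gene Phlda2 (1.34-fold, 1.19 to 1.51), whose calls ended without 3, 13 and 10 of the arrays in turn (highest adjusted p = 0.067, 0.13 and 0.10). Both groups of Phlda2 (5.96 and 6.38 on average) lay below the median level of all genes.

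The other genes that rose act mostly outside fatty acid metabolism. Slc8a1, a sodium-calcium exchanger, rose 2.21-fold (1.71 to 2.86; adjusted p = 0.01), with 5.65 to 6.89 in HFD livers (median 6.28) against 4.84 to 5.61 in control livers (median 5.15). Both groups averaged below the median level of all genes. Chrna2, a nicotinic receptor subunit, rose 1.74-fold (1.43 to 2.12; adjusted p = 0.017), with 7.38 to 8.32 in HFD livers against 6.87 to 7.62 in control livers. Control 7 was the highest control and the 1 that reached into the HFD range. Asic5, of the acid-sensing ion channel family, rose 1.42-fold (1.25 to 1.6; adjusted p = 0.017), and lost its call with all 72 arrays in the fit (0.26). Prex2, an exchange factor for Rac, rose 1.52-fold (1.28 to 1.8), Cox6b2, a cytochrome oxidase subunit best known from testis, 1.49-fold (1.26 to 1.76) and Efna5, an ephrin ligand, 1.4-fold (1.23 to 1.61), with adjusted p of 0.043, 0.043 and 0.037. These 3 lost their calls without 12, 13 and 8 of the arrays in turn (highest adjusted p = 0.096, 0.11 and 0.093). Tmed5, of vesicle transport, Mustn1, best known from muscle and bone, Smpd3, a sphingomyelinase, and Casp8, an initiator of cell death, rose by 1.30- to 1.4-fold, and each call ended without 11, 11, 13 and 11 of the arrays (highest adjusted p = 0.11, 0.10, 0.11 and 0.10).

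Several called genes known from blood cells or from the adhesion of leukocytes rose, and they stood on none of the gene lists used here. They were grouped after their values were seen. Cd44, an adhesion receptor of leukocytes and other cells, rose 1.63-fold (1.37 to 1.94; adjusted p = 0.017), with 7.86, 7.47, 7.49, 7.24, 7.14, 7.93 and 7.96 in HFD livers, against 6.65, 7.12, 6.88, 6.85, 7.04, 6.85, 6.72 and 6.95 in control livers. Vcam1, which binds leukocytes to vessel walls and is also made by Kupffer cells, rose 1.57-fold (1.34 to 1.84; adjusted p = 0.017), with 7.34 to 8.13 in HFD livers (median 7.82) against 6.81 to 7.33 in control livers (median 7.17). Plek, a protein kinase C substrate of platelets and leukocytes, Cyth4, an ARF exchange factor of blood cells, and Stap1, a signalling adaptor of blood cells, rose 1.41-fold (1.22 to 1.62), 1.37-fold (1.21 to 1.57) and 1.8-fold (1.4 to 2.30), with adjusted p of 0.043, 0.043 and 0.047. Cd44 and Vcam1 were called whichever array was left out. The other 3 lost their calls without 11, 10 and 13 of the arrays (highest adjusted p = 0.11 for each).

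Of 28 measured macrophage and Kupffer cell markers, 20 were higher and none lower at an unadjusted p under 0.05, against 5.82% and 2.49% of all genes. A positive difference was found in 25 of the 28 (median 0.42), against 10178 of all 19938 genes. Limma called 0 of the 28 markers in these 15 arrays. C1qb, a chain of complement C1q made by macrophages, read 10.67, 9.92, 10.83, 10.25, 9.92, 11.13 and 10.36 in HFD livers, against 9.44, 9.82, 9.92, 9.85, 9.46, 9.72, 9.49 and 9.68 in control livers. HFD 2 and 5 met the highest control, and C1qb differed by 0.77 ± 0.16 (adjusted p = 0.058). Clec4f, a lectin specific to mouse Kupffer cells, had 9.63 to 10.16 in HFD livers (median 9.80), against 9.16 to 9.72 in control livers (median 9.39), with a difference of 0.44 ± 0.09 (adjusted p = 0.06). Adgre1, which encodes a classic macrophage surface marker, read 11.11 in HFD 6 and 8.07 to 9.0 in the other HFD livers, against 7.54 to 8.5 in control livers, and Cd5l, a Kupffer cell protein, was also highest in HFD 6 (11.06). Of the 28 markers 16 had their highest value in HFD 6. Without HFD 6 the median difference was 0.32, and 19 markers were higher at an unadjusted p under 0.05 (5.59% of all genes). With all 72 arrays in the fit, which pools strains of unequal spread, 8 of the 28 were called higher. In that fit 89 of all genes were called higher. The number of markers called was 6 with array weights, 4 without HFD 5 and 3 without HFD 2. In these fits 74, 33 and 27 of all genes were called higher. Among genes above the median level 2 of 19 markers were called, and 36 of all such genes were called higher. Only 1 marker was called without control 3, without control 6 or with a trended, robust variance. There 27, 30 and 26 of all genes were called higher.

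Adgre1 and Cd5l varied together in HFD livers (Pearson r = 0.939, exact permutation p = 0.00119, adjusted over 6 relations 0.00714; rho = 0.964, p = 0.00278, adjusted 0.0167; n = 7), also without HFD 5 and 6 (r = 0.972). In the 8 control livers r was 0.789 (exact permutation p = 0.0392, adjusted 0.0784) and rho 0.452 (p = 0.267, adjusted 0.535), and without control 1 and 3 r was -0.184, so that relation rests on those arrays. In whole-liver RNA, more macrophages and more RNA per macrophage cannot be told apart. The MHC class II list had 8 of 8 differences above 0 (median 0.26), against 10178 of all 19938 genes. It had 0 genes called by limma and 3 higher at an unadjusted p under 0.05, against 5.82% of all genes. Lymphocyte (17 genes, median 0.07), neutrophil (10, -0.01) and interferon response lists (22, 0.07) had 0 genes called by limma, with 3, 1 and 2 higher and none lower at an unadjusted p under 0.05. In these lists 13, 10 and 6 genes lay below the median level of all genes, and whether such values exceed background was not tested. Ptprc, which encodes CD45, had 7.58 to 9.0 in HFD livers against 7.26 to 7.74 in control livers (0.66 ± 0.16, adjusted p = 0.12).

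**Figure D4:**
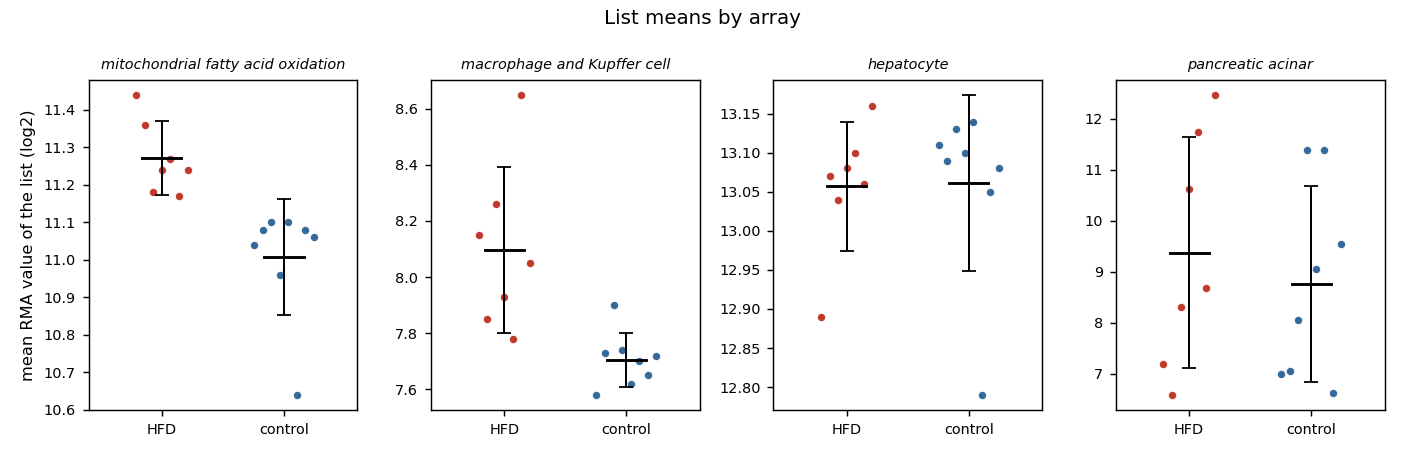
Mean RMA value (log2, y axis) of 4 gene lists in each of the 7 HFD and 8 control arrays, with group means and SDs as bars; each panel has its own axis, which does not start at 0. Every HFD array lies above all controls for mitochondrial fatty acid oxidation (11.17 to 11.44 against 10.64 to 11.10), HFD 6 is highest for macrophage genes (8.65), hepatocyte means overlap, and acinar means span a wide range in both groups.

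Clock genes varied more among control livers than among HFD livers. Arntl encodes the activator BMAL1, and Dbp is a direct output gene of opposite phase. Dbp read 10.54, 10.78, 10.53, 9.99, 10.5, 10.44 and 10.18 in HFD livers (SD 0.259), against 10.21, 10.60, 9.48, 7.32, 10.75, 8.55, 9.18 and 8.96 in control livers (SD 1.15). Control 1, 2 and 5 lay within the HFD range, and the other 5 lay below it. Arntl was highest in control 4 (8.85), where Dbp was lowest, and lay between 6.38 and 7.56 in HFD livers. The same 5 controls lay below every HFD array in Ciart and Per3. The SD was larger in control livers for 17 of the 18 clock genes, against 51.9% of all genes.

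Limma called 0 of the 18 clock genes (median 0.33). At an unadjusted p under 0.05, 8 of the 18 were higher and 1 lower, against 5.82% and 2.49% of all genes. The number higher was 6 after quantile normalization within the strain, 5 with array weights and 9 without control 2. There 4.91%, 6.2% and 5.26% of all genes were higher. With all 72 arrays in the fit, which pools strains of unequal spread, 3 of the 18 were called higher. With the acinar mean as a covariate 1 was. In these fits 89 and 52 of all genes were called higher. Ciart, a clock repressor, had 8.09 to 10.13 in HFD livers (median 8.90), against 6.26 to 9.44 in control livers (median 6.73), with a difference of 1.53 ± 0.47 (adjusted p = 0.25). Per3, Per2 and Per1, the period genes, differed by 0.91 ± 0.30, 0.59 ± 0.15 and 0.42 ± 0.21 (adjusted p = 0.29, 0.12 and 0.62), Arntl by -0.77 ± 0.29 (0.42) and Dbp by 1.04 ± 0.39 (0.41). Nr1d1, which encodes REV-ERBα, had an interval of -0.43 to 0.44. Over the 8 control livers Arntl and Dbp ran opposite (Pearson r = -0.898, exact permutation p = 0.00407, adjusted 0.0122; rho = -0.833, p = 0.0154, adjusted 0.0461), and r was -0.757 without control 2 and 4. In the 7 HFD livers r was -0.591 (exact permutation p = 0.183, adjusted 0.275) and rho -0.25 (p = 0.595), with r = -0.829 without HFD 1 and 7. The hour of sampling is not in the labels, so its part in these values was not tested.

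**Figure D5:**
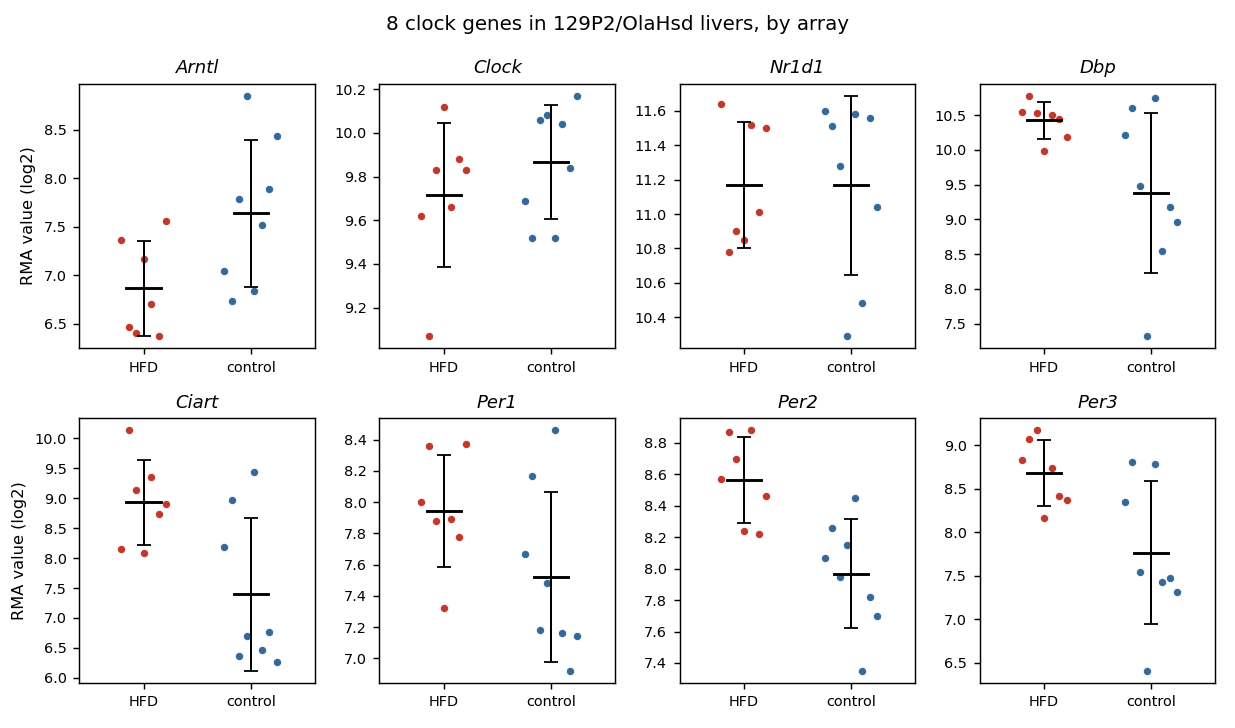
RMA values (log2, y axis) of 8 clock genes in each of the 7 HFD and 8 control arrays, with group means and SDs as bars; each panel has its own axis, which does not start at 0. For Dbp the HFD arrays sit between 9.99 and 10.78 while the controls run from 7.32 to 10.75, and Arntl is highest in control 4 (8.85).

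The promoter windows of Ciart, Per3 and Dbp were searched for CACGTG, the E-box that BMAL1 and CLOCK bind, and TTATGTAA, the D-box that DBP, TEF and HLF bind, on either strand and with no overlapping matches. Ciart is shown because its window held 3 E-boxes and Per3 because it held 2 D-boxes; the D-box search was added after the values were seen. Both are RefSeq windows as above, with matches in capitals.
Ciart (chr3:95882179-95882478, minus strand): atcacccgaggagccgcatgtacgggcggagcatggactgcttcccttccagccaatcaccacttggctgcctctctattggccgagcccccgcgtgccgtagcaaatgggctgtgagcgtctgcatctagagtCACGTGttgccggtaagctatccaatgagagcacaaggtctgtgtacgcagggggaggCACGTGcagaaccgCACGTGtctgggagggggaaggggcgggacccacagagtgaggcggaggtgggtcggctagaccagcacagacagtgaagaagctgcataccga
Per3 (chr4:151044616-151044915, minus strand): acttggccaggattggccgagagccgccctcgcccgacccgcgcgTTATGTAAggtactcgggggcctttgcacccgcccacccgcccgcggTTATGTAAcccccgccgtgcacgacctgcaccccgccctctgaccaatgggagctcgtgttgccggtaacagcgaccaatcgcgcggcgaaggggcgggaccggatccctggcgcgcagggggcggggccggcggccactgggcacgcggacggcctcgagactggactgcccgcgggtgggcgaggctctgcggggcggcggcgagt
At least 1 E-box was in 7.15% of all windows and 9.5% of tested genes, and at least 1 D-box in 0.938% and 0.999%. The windows of Dbp and Per3 held no E-box. Per2, Vnn1 and Cyp4a14 had no window, so the searches planned for them were not run.

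Markers of other cell types were read beside these results. The 19 pancreatic acinar genes, which encode digestive enzymes and have no known role in liver, had list means of 6.59 to 12.47 in HFD livers and 6.62 to 11.39 in control livers. All 19 differences were positive (median 0.61), limma called 0 and 0 had an unadjusted p under 0.05. Cpb1, a carboxypeptidase, had a difference of 0.81 with an interval of -1.72 to 3.34. With the acinar mean of each array as a covariate, 74 genes were called. Endothelial (16 genes, median 0.05), stellate cell and matrix (24, 0.10), bile duct (8, -0.07), red blood cell (3, 0.01), adipocyte (9, 0.08) and skeletal muscle lists (10, -0.13) had 0 genes called by limma, with 2, 5, 0, 0, 0 and 0 at an unadjusted p under 0.05. In these lists 0, 5, 6, 2, 5 and 6 genes lay below the median level of all genes. Col1a1, the main fibrillar collagen, had an interval of -0.21 to 0.10.

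Other liver functions held few or no calls. Saa4, a constitutive serum amyloid A of lipoproteins, rose 1.47-fold (1.25 to 1.73; adjusted p = 0.047) as the only called gene of 28 in the acute phase and iron list (median 0.08). It had 11.75 to 12.39 in HFD livers against 11.32 to 11.87 in control livers, and lost its call without HFD 3, 4, 5 or 6 or control 1, 2, 4, 5, 7 or 8 (0.064 to 0.12). Lcn2, a siderophore-binding protein of inflammation, had 9.75 to 11.12 in HFD livers (median 10.71), against 8.34 to 10.98 in control livers (median 9.33), and was not called (1.09 ± 0.31, adjusted p = 0.21). Dio1, the deiodinase that activates thyroid hormone, had 9.85 to 11.43 in HFD livers (median 10.90), against 6.94 to 10.05 in control livers (median 9.31). Only HFD 7 lay within the control range, and a mean 3.82-fold higher (2.08 to 7.03) was not called (adjusted p = 0.069). Etnppl, which breaks down phosphoethanolamine, had 9.22 to 10.97 in HFD livers against 10.25 to 12.41 in control livers (-1.30 ± 0.29, adjusted p = 0.089).

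In bile acid metabolism, Slco1a4, an anion carrier, had 9.23 to 10.46 in HFD livers (median 9.75), against 10.29 to 11.35 in control livers (median 10.82), and a difference of -0.94 ± 0.19 (adjusted p = 0.058). Cyp7a1, the rate-limiting enzyme of bile acid synthesis, had 10.26 to 12.77 in HFD livers (median 10.64), against 11.17 to 12.70 in control livers (median 12.07), and was not called (-0.76 ± 0.36, adjusted p = 0.60). The list of 25 bile acid genes had 0 called by limma and 3 lower at an unadjusted p under 0.05. Glucose and insulin metabolism (22 genes, median 0.02) had 0 called by limma and 4 at an unadjusted p under 0.05, and the gluconeogenic genes Pck1 and G6pc had intervals of -0.27 to 0.76 and -0.53 to 0.23. Endoplasmic reticulum stress (26 genes, median 0.04) and cell cycle genes (23, -0.07) had 0 called by limma, with 4 and 6 at an unadjusted p under 0.05, and the chaperone gene Hspa5 had an interval of -0.18 to 0.20. Of the cell cycle genes 17 lay below the median level of all genes.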

How the data were processed

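Whole-liver RNA of 7 HFD and 8 control mice was measured on Mouse Gene ST arrays of Affymetrix. The authors deposited log2 values, 1 for each probe set and array; the submitters' processing notes name RMA and version 1.1 of Affymetrix Expression Console; RMA corrects background, normalizes all arrays together and summarises probes, so detection calls and probe signals were not used here. The median level of all genes and arrays was 6.9; no background level was measured, so whether dim genes exceed it was not tested.

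Of 35556 probe sets, 21789 had 1 gene symbol, 1621 had several and 12146 were not listed with one; 21698 were matched to RefSeq genes (GRCm38.p6) by Entrez identifier. For 999 genes with several probe sets the brightest was taken. The 19938 genes were tested with limma 3.58.1 (R 4.3.3) on the 15 arrays, with 1 mean per group, 13 residual degrees of freedom and Benjamini-Hochberg adjustment. Relations between genes used exact two-sided permutation tests (scipy 1.17.1), adjusted over 6. Promoters were aligned with Biopython 1.88. The fit was also run on simulated normal values, independent between genes and with the same SD in both groups. The real arrays need not meet these conditions, so that run does not settle how the fit behaves on them.

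Genes were named by rule, 147 in all: the 15 highest and 15 lowest log2 differences among called genes, every called list member, the 2 members with the lowest p of a list with under 2 calls, and fixed genes of the pathways described; members and lists were chosen with earlier results of these data known. Alternatives were other normalizations, gene summaries, level filters, variance models and covariates, the replicate number as a block, and leaving out each array.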

Additional observations from a re-analysis of the deposited data

Results flagged for a closer look

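In 25 of 294 groups of values (8.5%) the highest or lowest array stood far from the others of its group, by a gap that was a large share of the group's range (Dixon's ratio); chance gives about 1 in 20. Control 6 was the array in 10 of these and HFD 1 in 4, the same arrays that had the lowest correlations with their groups.

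Control 6 was lowest for the lipid genes Bdh1 (0.564), Dgat2 (0.571), Fads2 (0.572), Scd1 (0.531) and Srebf1 (0.589) and for the urea cycle gene Cps1 (0.562). It was highest for Camp (0.608), a neutrophil gene, Col1a1 (0.567), a collagen, Slc4a1 (0.548), the red cell anion exchanger, and Uqcrq (0.648), a respiratory chain subunit. HFD 1 was lowest for Camp (0.878), Alb (0.62), which encodes albumin, and Timp1 (0.609), and highest for Cyp2b9 (0.687).

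Among the other HFD livers, HFD 6 was highest for Adgre1 (0.695) and lowest for Gsta4 (0.572), HFD 7 highest for Smpd3 (0.665) and HFD 2 lowest for Them4 (0.645). Among the other control livers, control 3 was highest for Cyth4 (0.566) and Saa1 (0.554), control 4 highest for Gm36028 (0.578) and lowest for Angptl4 (0.552), control 5 lowest for Acat1 (0.54), and control 7 highest for Chrna2 (0.623) and lowest for Serpina7 (0.587).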

How the results depend on the processing

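The called genes kept their sign under each alternative that tested them, which was all 44 except among genes above the median level, where 39 were tested. Of the 44, 12 kept their call under all alternatives. Leaving out each array in turn gave 22 to 59 calls, 10 to 33 higher and 12 to 29 lower. With all 72 arrays in the fit 117 genes were called, 89 higher (76.1%, against 54.5% in the 15 arrays). That fit pools strains of unequal spread, so its calls need not hold for this strain. Array weights gave 148 calls, 74 higher and 74 lower, and the acinar mean as a covariate gave 74, with 52 higher. Without HFD 1 and control 6, chosen after seeing the data, 81 were called, 49 of them lower. Quantile normalization within the strain gave 47, with 18 higher and 29 lower (38.3% higher). The deviations of same-numbered HFD and control arrays correlated at 0.105 to 0.296 in pairs 1 to 6 and at -0.219 in pair 7, and 1 of 7 HFD arrays correlated best with its own number, so the numbers were not taken as pairs. The replicate block gave 22 calls, 9 higher and 13 lower, 19 of them among the 44. Of the 21 genes called whichever array was left out, it ended the calls of Cyp3a11 (adjusted p = 0.063), Slc8a1 (0.063), Acat1 (0.064), Rnd2 (0.065), Asic5 (0.076), Chrna2 (0.054), Cd44 (0.091) and Vcam1 (0.091), all with the same sign. Without the 2 arrays farthest from the median of the first gene, r of Vnn1 and Cyp4a14 was 0.847 in HFD livers and 0.235 in control livers, and r of Adgre1 and Cd5l was -0.184 in control livers. The causes were not tested. The number of arrays limits the precision.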

Other observations

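Of the 52 genes whose groups did not overlap, 23 were not called by limma, and those named here were chosen after their values were seen. Cd68, a macrophage lysosomal protein, had 8.58 to 9.29 in HFD livers against 7.79 to 8.56 in control livers (0.52 ± 0.13, SE; adjusted p = 0.12). C7, a complement component, had 6.59 to 7.62 in HFD livers against 6.10 to 6.57 in control livers (0.59 ± 0.13, adjusted p = 0.075). Slc27a2, a fatty acid transporter and acyl-CoA synthetase, had 13.24 to 13.56 in HFD livers, narrowly above 12.61 to 13.24 in control livers (0.32 ± 0.09, adjusted p = 0.21). Tnfsf10, which encodes the death ligand TRAIL, differed by 0.49 ± 0.11 (adjusted p = 0.072) and Cd274, which encodes an immune checkpoint ligand, by 0.35 ± 0.09 (adjusted p = 0.15). Tuba8, an alpha tubulin, was lower, with 6.59 to 7.22 in HFD livers against 7.26 to 8.47 in control livers (-0.55 ± 0.16, adjusted p = 0.20).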
